A study of Mus musculus with 6 samples.

Results

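The 10 genes described here belong to glutathione metabolism, to the thioredoxin system or to the known targets of the transcription factor NRF2. The members are Gclc, Gclm, Gsr, Gpx1, Gpx4, Prdx1, Prdx2, Srxn1, Txnrd1 and Nqo1. They were chosen by symbol, and each was read from the probe set annotated to that symbol alone. Such a probe set existed for 9 of the 10 members, among 22180 genes measured in this way. All 3 probe sets that cover Prdx1 are also annotated to the predicted gene Gm21399, so Prdx1 itself has no value.

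Expression was measured with 1 Affymetrix array per spleen in 3 DX2 mice and 3 control littermates, all 1 year old. The DX2 mice overexpressed AIMP2-DX2, a shortened splice form of AIMP2, a protein that holds together the multi-tRNA synthetase complex. They carried CAG-rtTA, a doxycycline-dependent activator driven by the broadly active CAG promoter, together with a responsive transgene, TRE DX2/+. Control mice carried TRE DX2/+ without the activator, and doxycycline pellets (6.25 mg per kg) were fed to both groups from 8 weeks of age. Only the DX2 mice carried rtTA, so effects of DX2 and of rtTA cannot be told apart. The labels call the 3 samples of a group biological replicates.

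Glutathione is a small thiol that cells make from amino acids, recycle with NADPH and spend on peroxides. Thioredoxin and the peroxiredoxins form a parallel thiol system, in which thioredoxin reductase and sulfiredoxin restore the oxidised proteins. NRF2 is held down by KEAP1 in resting cells and, once released, binds antioxidant response elements next to many of these genes together with a small MAF protein. In the spleen, red cell precursors and the macrophages that digest old red cells both handle large amounts of haem and iron, and the antioxidant enzymes are abundant in both.

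RefSeq promoter windows (build GRCm38.p6, from 250 bases before to 50 bases after a transcription start) were on hand for 8 of the 10 members, in 13 windows. They were searched on both strands for TGACNNNGC, a core of the antioxidant response element, and for the looser TGANNNNGC, of which every TGACNNNGC match is also a match. TGACNNNGC was found for 4 of the 8 genes, namely Gclm, Srxn1, Txnrd1 and Prdx1, against 14.0% of the 27025 genes in the table. TGANNNNGC was found for the same number, 4 of 8, against 45.0% of genes. Counted by window, the matches were 4 of 13 against 12.4% for TGACNNNGC and 5 of 13 against 41.3% for TGANNNNGC. The members were chosen in part as known NRF2 targets, so these shares are not independent of that choice. The Gclm and Srxn1 windows are shown whole because they belong to the member with the largest difference and to one whose groups did not overlap. The Txnrd1 and Prdx1 stretches of 60 bases are shown to compare their sites. Capitals mark matches to TGANNNNGC on either strand.
Gclm, chr3:122245307-122245606, plus strand: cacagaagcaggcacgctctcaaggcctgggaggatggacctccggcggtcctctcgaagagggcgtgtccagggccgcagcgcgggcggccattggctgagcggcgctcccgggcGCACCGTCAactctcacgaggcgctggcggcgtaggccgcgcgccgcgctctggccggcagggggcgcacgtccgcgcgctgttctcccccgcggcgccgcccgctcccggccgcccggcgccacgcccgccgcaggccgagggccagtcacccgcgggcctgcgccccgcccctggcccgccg
Srxn1, chr2:152105274-152105573, plus strand: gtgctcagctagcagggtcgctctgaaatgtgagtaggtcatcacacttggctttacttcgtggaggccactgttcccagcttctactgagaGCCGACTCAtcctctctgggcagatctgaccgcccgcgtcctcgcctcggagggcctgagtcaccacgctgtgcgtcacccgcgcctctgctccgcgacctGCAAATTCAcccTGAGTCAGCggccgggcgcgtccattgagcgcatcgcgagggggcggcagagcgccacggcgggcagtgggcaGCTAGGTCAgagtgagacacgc
Txnrd1, chr10:82859089-82859148, plus strand: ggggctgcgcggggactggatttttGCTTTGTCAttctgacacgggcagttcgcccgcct
Prdx1, chr4:116685441-116685500, plus strand: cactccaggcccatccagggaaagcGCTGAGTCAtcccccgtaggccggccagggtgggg

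The Srxn1 window held 4 matches to the looser motif, more than any other member window. One of them, TGAGTCAGC, starts 45 bases before the transcription start on the gene's own strand. The TGACNNNGC match of Srxn1 lies after the start, and those of Gclm, Txnrd1 and Prdx1 lie before it. A motif match is a description of these letters and not evidence of binding.

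As a check of the tissue, marker transcripts of B cells, T cells and red pulp macrophages were read. The B cell receptor chain gene Cd79a read 9.45, 10.14 and 10.88 in DX2 spleens and 11.75, 11.08 and 11.71 in control spleens 1, 2 and 3 (log2). The red pulp macrophage transcription factor Spic lay between 8.76 and 9.67 on all arrays. Pearson correlations across genes were between 0.963 and 0.988 for all pairs of arrays, and genes are not independent replicates. Xist and the Y-linked Eif2s3y marked control 1 and control 2 as female and the remaining 4 spleens as male. Every DX2 spleen was thus male and control 3 was the only male control, so group and sex cannot be fully told apart. DX2 1 stood apart in T cell and neutrophil transcripts. The mean of 8 measured T cell markers was 6.54, 8.10 and 7.86 in DX2 spleens and 7.93, 7.64 and 7.92 in control spleens, all 8 lower in DX2 on average. The mean of 9 neutrophil markers was 9.56, 7.52 and 7.65 in DX2 spleens and 7.17, 7.66 and 8.27 in control spleens, all 9 higher in DX2 on average, and none of either list passed the test. Liver transcripts stood apart on control 3, with a mean log2 value over 6 genes of 6.74 there against 4.56 to 5.60 on the other arrays. Over all genes, limma made 70 calls at an adjusted p of 0.05 (Benjamini-Hochberg).

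The measured antioxidant genes were higher on average in DX2 spleens, all 9 of 9, and none of them passed the test over all genes. The differences ran from 0.17 for Txnrd1 to 1.31 for Gclm on the log2 scale, with a median of 0.64, against a median of 0.01 over all genes. Of all genes, 51.6% had a difference above 0. All 9 members were higher as well after a second quantile normalization and with arrays centred on their median. At an adjusted p of 0.05, 0 of 9 members were called (limma), against 0.316% of all genes, 0.0361% higher and 0.280% lower in DX2. The balance changed without DX2 2, when 198 genes were called higher and 172 lower, and with array weights (219 and 328). At an unadjusted p under 0.05, 4 of 9 members were higher, namely Gsr, Gpx1, Gpx4 and Srxn1, against 8.13% of all genes. The groups did not overlap for 3 of the 9, Gsr, Gpx4 and Srxn1, against 10.7% of all genes with DX2 above control. DX2 and control spleens are bulk tissue, in which more cells of a type and more RNA per cell cannot be told apart.

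**Figure D1:**
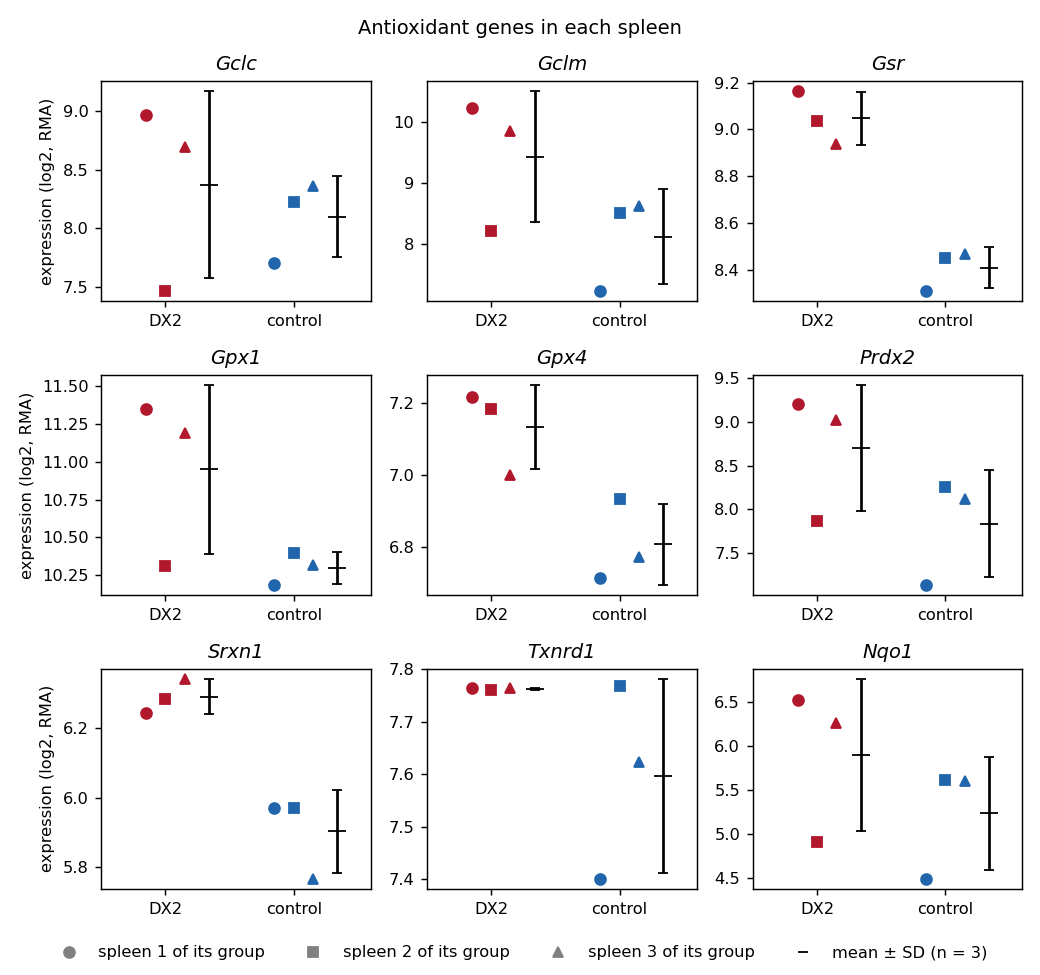
Expression of the 9 measured members in each spleen, on the log2 scale of the deposited RMA values, with DX2 left of control in each panel. Points are single spleens, with the mean and SD of 3 at the right of each group, and axes differ between panels. The groups do not overlap for Gsr, Gpx4 and Srxn1, while DX2 2 (square) lies within or below the control range for Gclc, Gclm, Gpx1, Prdx2 and Nqo1.

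**Figure D2:**
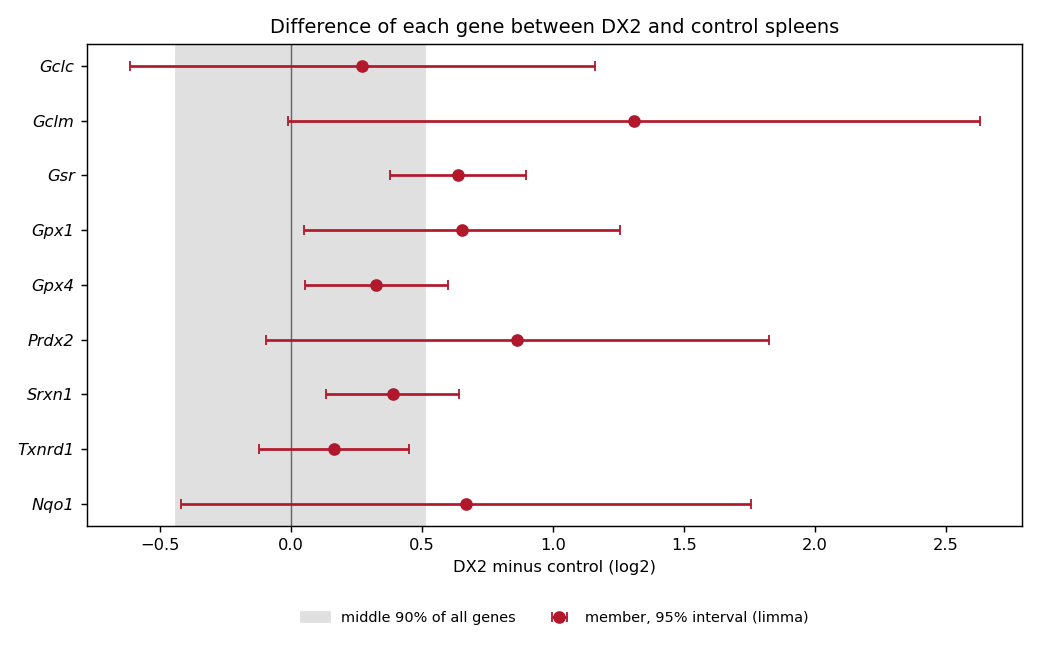
Difference of each measured member, DX2 minus control on the log2 scale, with its 95% interval from limma over 3 DX2 and 3 control spleens. The grey band holds the middle 90% of all 22180 genes (-0.44 to 0.51). Of the 9 points, 5 lie right of the band (Gclm, Prdx2, Nqo1, Gpx1 and Gsr), and the intervals of Gsr, Gpx1, Gpx4 and Srxn1 do not reach 0.

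Glutathione synthesis begins with glutamate-cysteine ligase, whose catalytic subunit is encoded by Gclc and whose modifier subunit is encoded by Gclm. Gclm read 10.23, 8.22 and 9.85 in DX2 spleens 1, 2 and 3 and 7.23, 8.51 and 8.63 in control spleens 1, 2 and 3. DX2 1 and DX2 3 were above every control spleen, whereas DX2 2 was below control 2 and control 3. The difference of 1.31 (SE 0.57, 95% interval -0.01 to 2.63), a fold of 2.48, had an adjusted p of 0.318 (limma). It exceeded the differences of 99.8% of all genes. Without DX2 2 it was 1.92 (adjusted p = 0.0623), without control 1 it was 0.86 and with a sex term 0.80.

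Gclc was also highest in DX2 1 and DX2 3, with a smaller difference between the groups. It read 8.96, 7.46 and 8.69 in DX2 spleens and 7.71, 8.23 and 8.36 in control spleens. DX2 2 was the lowest of all 6 arrays, and the groups overlapped. The difference was 0.27 (SE 0.38, 95% interval -0.61 to 1.16, limma adjusted p = 0.780). It turned to -0.02 without DX2 1, and was 0.08 without control 1, 0.01 with a sex term, 0.11 without DX2 3 and 0.73 without DX2 2.

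Glutathione reductase, encoded by Gsr, returns oxidised glutathione to its reduced form with NADPH. Gsr read 9.16, 9.04 and 8.94 in DX2 spleens and 8.31, 8.45 and 8.47 in control spleens. Every DX2 spleen was above every control spleen, and the gap between the groups (0.47) was wider than the range within either (0.23 in DX2 and 0.16 in control). The means were 9.05 ± 0.11 in DX2 and 8.41 ± 0.09 in control spleens (log2, SD, n = 3 each). That difference, 0.64 (SE 0.11, 95% interval 0.38 to 0.90) or 1.56-fold, had an adjusted p of 0.0745 in limma, the lowest of the members. With array weights, which give arrays that stand apart less say, it was 0.59 at an adjusted p of 0.0414. It was 0.58 with a sex term (adjusted p = 0.471), and over all alternatives the adjusted p ran from 0.0414 to 0.678. Leaving out any 1 array gave 0.58 to 0.69.

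The glutathione peroxidases reduce peroxides at the expense of glutathione, GPX1 acting on soluble peroxides and GPX4 on lipid peroxides in membranes. Gpx1 read 11.35, 10.31 and 11.19 in DX2 spleens and 10.18, 10.40 and 10.32 in control spleens. DX2 2 lay inside the narrow control range and the 2 other DX2 spleens lay well above it. The SD was 0.56 in DX2 and 0.11 in control spleens. The difference of 0.65 (SE 0.26, 95% interval 0.05 to 1.26) had an adjusted p of 0.278 (limma), and without DX2 2 it was 0.97 at an adjusted p of 0.0365. It was 0.45 without DX2 1 (adjusted p = 0.426) and 0.53 without DX2 3 (adjusted p = 0.527), and over all alternatives the adjusted p ran from 0.0365 to 0.792.

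Gpx4 read 7.22, 7.18 and 7.00 in DX2 spleens and 6.72, 6.93 and 6.77 in control spleens. The groups did not overlap, but DX2 3 and control 2 were only 0.067 apart. The difference was 0.33 (SE 0.12, 95% interval 0.06 to 0.60, limma adjusted p = 0.235), and it was 0.28 to 0.39 with any 1 array left out.

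Peroxiredoxins reduce hydrogen peroxide with thioredoxin, and PRDX2 is among the most abundant proteins of red cells. Prdx2 read 9.20, 7.87 and 9.03 in DX2 spleens and 7.14, 8.26 and 8.12 in control spleens. The order of the spleens was that of Gclm, except that control 2 stood above control 3. The difference of 0.86 (SE 0.41, 95% interval -0.10 to 1.82), a fold of 1.82, had an adjusted p of 0.362 (limma). It was 1.28 without DX2 2 (adjusted p = 0.0899) and 0.51 without control 1. The brightest probe set that Prdx1 shares with Gm21399 read 9.81, 10.44 and 9.83 in DX2 spleens and 9.69, 9.75 and 9.79 in control spleens. There DX2 2 was the highest array, whereas for Prdx2 it was the lowest DX2 spleen. The difference was 0.29 (SE 0.19, adjusted p = 0.508 in limma over all probe sets), and 0.08 without DX2 2.

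Sulfiredoxin, encoded by Srxn1, repairs peroxiredoxins whose active cysteine has been overoxidised. Srxn1 read 6.24, 6.29 and 6.34 in DX2 spleens and 5.97, 5.97 and 5.77 in control spleens. The 3 DX2 spleens were close together (SD 0.05) and all above the control spleens (SD 0.12). The difference was 0.39 (SE 0.11, 95% interval 0.14 to 0.64, limma adjusted p = 0.154), 0.32 to 0.42 with any 1 array left out, and 0.53 with a sex term.

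Thioredoxin reductase 1, encoded by Txnrd1, keeps cytosolic thioredoxin reduced. Txnrd1 read 7.76 in each of the 3 DX2 spleens and 7.40, 7.77 and 7.62 in control spleens. Control 2 stood marginally above the DX2 spleens, so the groups overlapped. The difference of 0.17 (SE 0.12, 95% interval -0.12 to 0.45, limma adjusted p = 0.563) was 0.07 without control 1 and 0.25 without control 2. Of the 9 differences it was the smallest.

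The quinone reductase encoded by Nqo1 is widely used as a readout of NRF2 activity. Nqo1 read 6.53, 4.91 and 6.26 in DX2 spleens and 4.48, 5.61 and 5.59 in control spleens. DX2 1 and DX2 3 were above all control spleens, and DX2 2 was below control 2 and control 3. The difference of 0.67 (SE 0.47, 95% interval -0.42 to 1.76) had an adjusted p of 0.539 (limma). It was 1.16 without DX2 2, 0.35 without DX2 1, 0.30 without control 1 and 0.30 with a sex term.

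The members thus differed in how far single spleens spread. Gclm, Gclc, Nqo1, Prdx2 and Gpx1 had SDs of 0.56 to 1.07 among DX2 spleens, against a median of 0.17 over all genes. The SDs of Gsr, Gpx4, Srxn1 and Txnrd1 were at most 0.12. DX2 2 was the lowest DX2 spleen for 6 of 9 members, among them Txnrd1, whose DX2 spleens spanned only 0.0033. Control 1, a female, was the lowest control spleen for 8 of 9. Control 2, also a female, was the highest control spleen for Gpx1, Gpx4, Prdx2, Srxn1, Txnrd1 and Nqo1. With a sex term the differences were 0.58 for Prdx2, 0.64 for Gpx1, 0.36 for Gpx4 and 0.14 for Txnrd1. DX2 1, which stood apart in T cell and neutrophil markers, was the highest array for 7 of 9, and the part of those cells was not tested. Without DX2 1 the median member difference was 0.41, and Gclc was no longer higher.

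**Figure D3:**
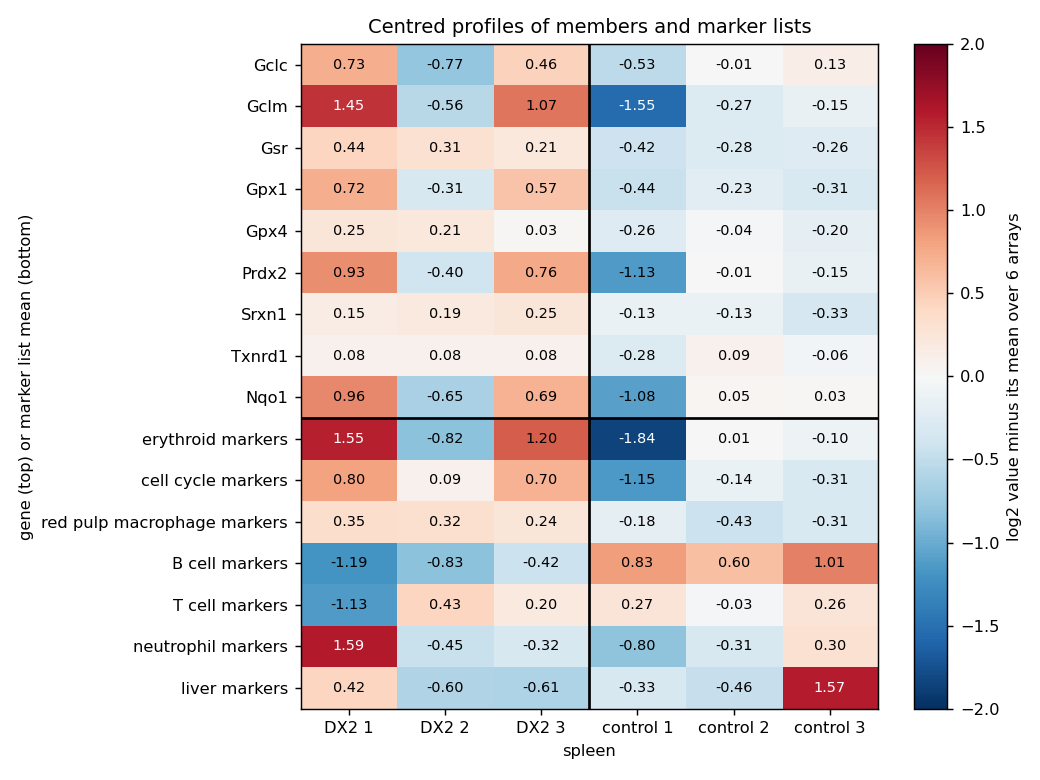
Each cell gives a spleen's log2 value minus the mean over all 6 arrays, for the 9 measured members (top) and for the mean of each marker list (bottom), with DX2 spleens left of control spleens. Gclm, Prdx2, Nqo1 and the erythroid markers are high in DX2 1 and DX2 3 and low in DX2 2 and control 1. Gsr, Srxn1 and the red pulp macrophage markers are above 0 in all DX2 spleens and below 0 in all control spleens.

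Markers of red cell precursors ordered the 6 spleens as Prdx2 and Nqo1 did. All 10 measured erythroid markers of 16 listed were higher in DX2 on average, none past the test, and the mean of the list was 9.66, 7.29 and 9.32 in DX2 spleens and 6.27, 8.12 and 8.01 in control spleens. No measured erythroid marker was near the low end of the arrays, the lowest value being 5.18 for Klf1 in control 1. The root mean square distance between the centred profile of Gclm and that of this list was 0.21 over the 6 arrays, and 0.44 to that of the cell cycle markers. The 9 measured cell cycle markers of 10 were also all higher, none past the test, with list means of 9.06, 8.34 and 8.96 in DX2 and 7.11, 8.12 and 7.95 in control spleens. The other 4 spread-out members lay nearer to that list than to the erythroid one. The distances were 0.22 against 0.46 for Prdx2, 0.35 against 0.45 for Nqo1, 0.48 against 0.71 for Gclc and 0.34 against 0.75 for Gpx1. Such a distance depends on the size of the swings as well as on their order. Centred values ran from -1.84 to 1.55 in the erythroid list and from -1.15 to 0.80 in the cell cycle list. A nearer list is therefore not always one of like order. DX2 2 stood at 0.09 in the cell cycle list, against -0.40 for Prdx2, -0.65 for Nqo1 and -0.82 in the erythroid list. By the same measure, Gclc and Gpx1 were also nearer to the red pulp macrophage list (0.56 and 0.36) than to the erythroid one. Both were nearer to the neutrophil list as well (0.52 and 0.59). Yet DX2 2 stood at -0.77 for Gclc and -0.31 for Gpx1, against 0.32 in the macrophage list. The part of these cell types in the members' differences was not tested.

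The mean of the red pulp macrophage markers separated the groups with little spread, as did Gsr and Srxn1. Of the 12 markers, all measured, 11 were higher in DX2, and Cd5l passed the test. The groups did not overlap for 9 of them, against 10.7% of all genes with DX2 above control. Slc40a1 was lower (-0.33), and its groups overlapped, as did those of Adgre1 (0.19) and Cd163 (0.17). The mean of the 12 markers was 9.26, 9.23 and 9.15 in DX2 spleens and 8.73, 8.48 and 8.60 in control spleens. Centred profiles of Gsr, Srxn1 and Gpx4 lay 0.12, 0.16 and 0.20 from that of the list. That of Txnrd1, whose groups overlapped, lay 0.29 from it. Centred values of the list ran only from -0.43 to 0.35, so members with small swings lie near it whatever their order. All 10 measured B cell markers of 11 were lower in DX2 without overlap, against 11.2% of all genes. Of these, 5 passed the test (limma), against 0.280% of all genes called lower. The list means were 7.91 to 8.68 in DX2 and 9.70 to 10.11 in control spleens. The part of either cell type was not tested. Control 3, the array with the highest liver transcripts, was the highest control spleen for Gclm, Gclc and Gsr only. For every other measured member the highest control spleen was control 2, and for Srxn1 control 3 was the lowest. Leaving out control 3 together with DX2 1, the next highest in liver transcripts, kept all 9 members higher, with a median difference of 0.46.

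The genes with the most similar profiles were sought for the 5 members whose SD over the 6 arrays was at least 0.5. For Gclm they were Tspan33, Ces2g and Ypel4, at root mean square distances of 0.08 to 0.09. For Nqo1 they were Ubac1, Slc16a1, a lactate and pyruvate transporter, and Gypc, a glycophorin of the red cell membrane, at 0.09 to 0.11. For Prdx2 they were Blvrb, which reduces biliverdin, the replication licensing gene Cdc6 and the ubiquitin ligase gene Marchf8. Stradb, Cdkl1 and Brpf3 lay nearest to Gclc, and Fgfrl1, Daam1 and Grina nearest to Gpx1 (0.05 to 0.07). Distances were computed over 6 arrays that also carry the difference between the groups.

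Around these members, 69 of 78 listed genes of the same pathways were measured, and none passed the test over all genes (limma). Of the 69, 46 were higher in DX2 and 23 were lower, and the median difference was 0.22. At an unadjusted p under 0.05, 19 were higher, against 8.13% of all genes, and 6 lower, against 7.82%. Without overlap, 19 were higher, against 10.7%, and 8 lower, against 11.2%. The lowest adjusted p was 0.0766, for Fth1. Without DX2 2, Chac2 (1.59), Gpx3 (1.27) and Slc48a1 (0.82) passed, and with array weights Gpx3 (1.21), Slc48a1 (0.70) and Fth1 (0.53) did.

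**Figure D4:**
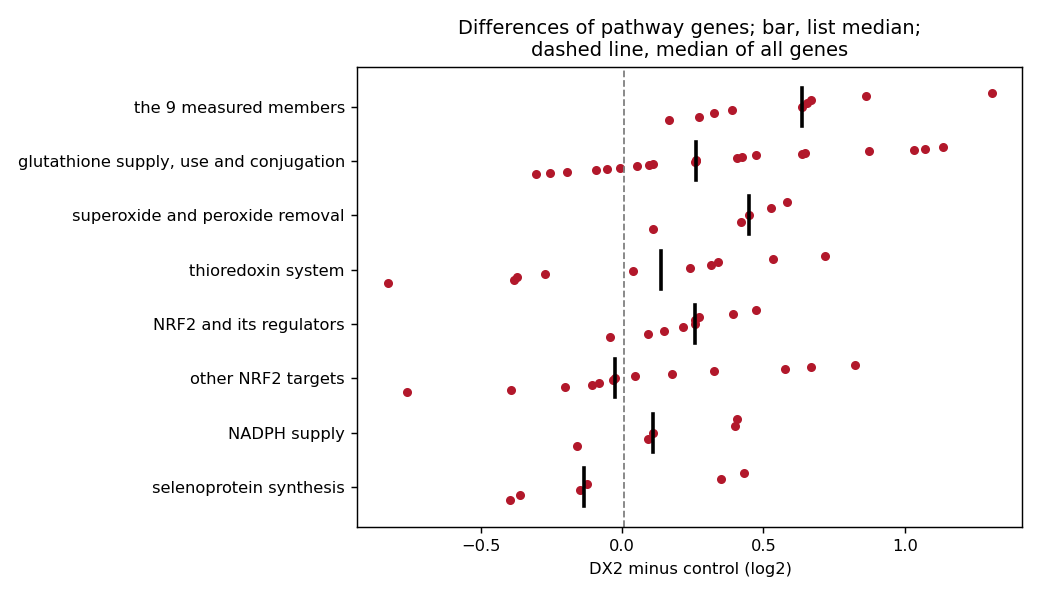
Difference of each measured gene, DX2 minus control on the log2 scale, in the 9 measured members and 7 further pathway lists. Each point is a gene, the bar is the list's median and the dashed line is the median of all genes (0.01). The list of superoxide and peroxide removal lies wholly above 0 (median 0.45), and the other NRF2 targets lie on both sides (median -0.02).

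Glutathione supply, use and conjugation was represented by 21 of 24 genes, with 15 higher, 6 lower and a median of 0.26. Gpx3, the secreted glutathione peroxidase, differed by 1.07 (SE 0.23), at 6.85, 6.40 and 7.12 in DX2 and 5.78, 5.34 and 6.03 in control spleens, without overlap. Gsto1, an omega-class glutathione transferase, differed by 0.64 (SE 0.16), also without overlap, and Gstp1, the pi-class transferase, by 0.42 (SE 0.15). Chac2, which breaks down glutathione in the cytosol, differed by 1.14 (SE 0.38) and was likewise highest in DX2 1 and DX2 3, at 8.06, 6.58 and 7.81 in DX2 and 5.94, 6.63 and 6.47 in control spleens. Slc7a11, the cystine transporter that feeds glutathione synthesis, went the other way among DX2 spleens, at 5.83, 8.17 and 6.94, against 7.38, 7.17 and 6.97 in control spleens. Its difference of -0.19 (SE 0.51) turned to 0.38 without DX2 1 and was -0.79 without DX2 2, -0.30 without control 3 and -0.09 without control 1. Directions of Gstm1 and Mgst1, near 0 in this list, flipped with both other scalings. The list's median was 0.15 without DX2 2 and between 0.19 and 0.38 without any other single array.

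Thioredoxin pathway genes outside the members were split. Of 10 measured of 12, 6 were higher and 4 lower, and the median was 0.14 (0.05 without DX2 2, 0.07 without DX2 1). Without overlap, 2 were higher, against 10.7% of all genes, and 3 lower, against 11.2%. Prdx3, the mitochondrial peroxiredoxin, read 9.17, 9.43 and 9.13 in DX2 and 8.28, 8.64 and 8.66 in control spleens, a difference of 0.72 (SE 0.15, limma adjusted p = 0.0937). Txn1, cytosolic thioredoxin, differed by 0.31 (SE 0.14). Txnip, the thioredoxin inhibitor, was lower in every DX2 spleen, at 10.31, 9.96 and 10.34 against 10.62, 10.49 and 10.65 in control spleens, a difference of -0.38 (SE 0.13, limma adjusted p = 0.230). Of the sestrins, stress-inducible regulators of peroxiredoxins and growth signalling, Sesn2 differed by 0.54 (SE 0.18, 0.35 without DX2 3). Sesn1 differed by -0.37 (SE 0.13) and Sesn3 by -0.83 (SE 0.29, -0.49 without DX2 1), and the groups overlapped for none of these sestrins.

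All 5 genes of superoxide and peroxide removal were higher, with a median of 0.45. The groups did not overlap for 3 of the 5, against 10.7% of all genes with DX2 above control. Sod1, the cytosolic superoxide dismutase, read 10.60, 10.05 and 10.22 in DX2 and 9.67, 9.82 and 9.81 in control spleens, a difference of 0.53 (SE 0.16). Sod2, its mitochondrial counterpart, differed by 0.42 (SE 0.12) and Ccs, the copper chaperone of SOD1, by 0.45 (SE 0.13). The adjusted p of these 3 lay between 0.158 and 0.174 (limma). Cat, encoding catalase, was lowest in DX2 2 (9.30). Its difference of 0.11 (SE 0.28) was 0.46 without DX2 2, -0.09 without DX2 1, -0.04 without DX2 3, 0.04 without control 1 and 0.21 without control 3.

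Of 9 measured genes of 10 for NRF2 itself and its regulators, 8 were higher, with a median of 0.26 (0.16 without DX2 1). The groups did not overlap for 3 of the 9, against 10.7% of all genes with DX2 above control. Nfe2l2, which encodes NRF2, read 8.99, 8.74 and 8.67 in DX2 and 8.53, 8.50 and 8.58 in control spleens, a difference of 0.26 (SE 0.12, limma adjusted p = 0.346) that was 0.16 without DX2 1. Keap1, its inhibitor, differed by 0.39 (SE 0.14), Nfe2l1 by 0.22 (SE 0.11) and Mafk, a small MAF partner, by 0.47 (SE 0.16). Cul3, of the ligase that degrades NRF2, differed by -0.04, and by 0.05 with arrays centred on their median, 0.004 without control 3 and -0.07 without control 1.

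Other known NRF2 targets showed no common direction, with 6 of 13 measured higher and 7 lower. Their median of -0.02 turned to 0.07 with centred arrays and to 0.06 without DX2 2, and was 0.03 without control 2 or control 3. Fth1, the ferritin heavy chain, read 12.15, 12.08 and 11.98 in DX2 and 11.46, 11.49 and 11.53 in control spleens, a difference of 0.58 (SE 0.10). Slc48a1, a haem transporter of macrophage lysosomes, differed by 0.67 (SE 0.16) and Blvra, a biliverdin reductase, by 0.33 (SE 0.12), both without overlap. Ephx1, microsomal epoxide hydrolase, was lower in every DX2 spleen, at 7.41, 7.63 and 7.92 against 8.61, 8.39 and 8.24, a difference of -0.76 (SE 0.16, limma adjusted p = 0.103). Hmox1, encoding haem oxygenase, differed by -0.03 (SE 0.20), by 0.06 with centred arrays, and by -0.19 (without DX2 1) to 0.18 (without DX2 2) with 1 array left out.

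The list of NADPH supply and pentose phosphate pathway genes was measured for 5 of 7, 4 of them higher. Pgd, of the pentose phosphate pathway, differed by 0.41 (SE 0.10) and Taldo1 by 0.40 (SE 0.15, 0.27 without control 1), both without overlap. Pgls differed by -0.16 (SE 0.12), and by -0.08 without DX2 1 and -0.24 without DX2 2. Idh2 differed by 0.09 (SE 0.14), and by 0.05 without DX2 2, -0.03 without control 1 and 0.20 without control 3. The list's median of 0.11 ranged between 0.05 (without DX2 2) and 0.26 (without DX2 1), and was -0.02 in the 4 male spleens.

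**Figure D5:**
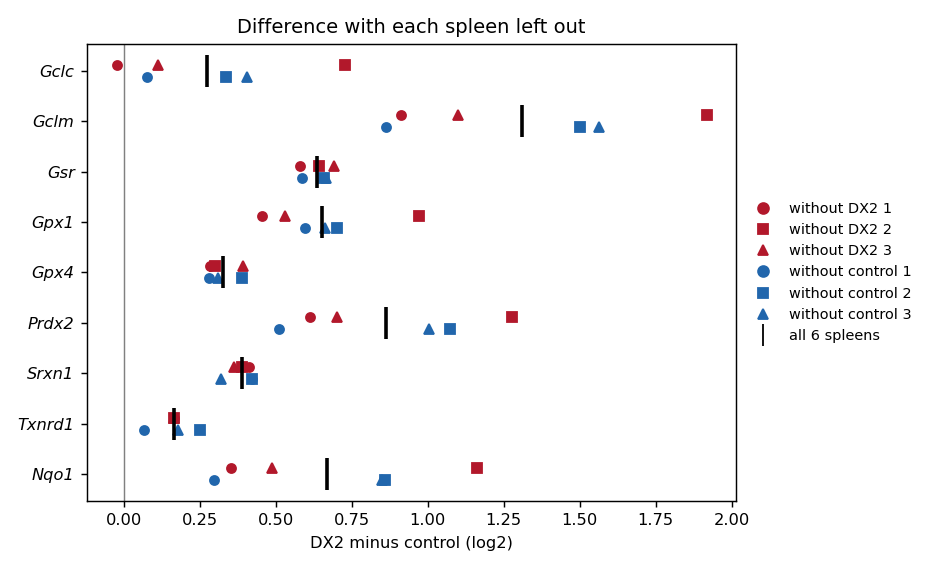
Difference of each measured member, DX2 minus control on the log2 scale, with all 6 spleens (black bar) and with each spleen left out (red, a DX2 spleen; blue, a control spleen; shapes give the spleen's number). Values for Gsr lie between 0.58 and 0.69, and those for Gclm between 0.86 and 1.92. Gclc without DX2 1 is the only value below 0.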

How the data were processed

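The authors deposited 1 table of log2 values for the series, made with RMA per the submitters' processing notes. The log2 scale was inferred from their range (0.771 to 13.3). Its version and annotation build are not stated in the labels. RMA compresses large differences. Of 41345 probe sets, 23521 had 1 gene symbol, 1814 several and 16010 none. Symbols were looked up by Entrez number (23328 matched, 0 updated), and a gene was its probe set with the highest mean over 6 arrays. Groups and replicate numbers came from the titles. DX2 minus control was fitted over all 22180 genes with limma 3.58.1 (R 4.3.3, functions lmFit and eBayes, no covariate), with Benjamini-Hochberg adjustment and a threshold of 0.05. Arrays carry no read depth, and their number limits precision. The fit was tested on simulated data.

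The members and gene lists were chosen with earlier results of these data known. All members were described. Of each wider pathway list, up to 4 genes of smallest unadjusted p and a few fixed ones could be named, and other genes named were singled out after their values were seen. Alternatives were a replicate block, each array left out, a filter on the 40% dimmest genes, other variance priors, array weights, other scalings, other probe set rules, a sex term, the 4 male spleens and an adjusted p of 0.1. Leaving out DX2 1 and control 3 together was added after seeing the data.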

Additional observations from a re-analysis of the deposited data

How the results depend on the processing

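Every alternative left the median member difference within the spread between replicate spleens (0.38 for the mean over members). It was 0.41 to 0.73 with 1 array left out, 0.53 with a sex term and 0.73 with arrays centred on their median. Staying within that spread is a weak check, because leaving out 1 array moves a group mean by only part of it. The replicate block, the other variance priors and the dim filter leave each member's difference unchanged by construction. All 9 measured members stayed higher under each alternative except Gclc without DX2 1 (-0.022). The number of members called was 0 to 1 with 1 array left out, 1 with array weights (Gsr) and 1 at an adjusted p of 0.1 (Gsr). For the wider pathway genes the number was 0 to 3 with 1 array left out, 3 with array weights and 2 at an adjusted p of 0.1. Calls among all genes numbered 1 to 370 with 1 array left out, against 70 with all 6. The balance of 8 higher and 62 lower became 198 and 172 without DX2 2 and 219 and 328 with array weights. Calls numbered 125 without the 40% dimmest genes, 547 with array weights, 2 with centred arrays, 2 with a sex term, 3 without DX2 1 and control 3, and 394 at an adjusted p of 0.1. In the 4 male spleens there were 0 calls (limma) and 1592 genes at an unadjusted p under 0.05, 2 of them members (Gsr and Srxn1). Fewer arrays or genes enter some of these fits, and otherwise the cause was not tested. In the 4 male spleens the lone control is taken to vary as DX2 spleens do, and the differences equal those with the sex term by construction. Centring shifted the median of all genes to 0.10, against 0.01. With a second quantile normalization, 20 calls were higher and 64 lower, against 8 and 62. Same-numbered spleens did not deviate together (correlations across genes of -0.32, -0.14 and 0.07), and only DX2 3 correlated best with its own number. The replicate block left 1 call among all genes and 0 among members, with the median member difference at 0.64.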

Other observations

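Factors that insert selenocysteine, the amino acid at the active sites of GPX1, GPX4 and TXNRD1, were split between the groups. Of 6 measured genes, 2 were higher and 4 lower in DX2, and none passed the test over all genes (limma). Without overlap, 2 were higher, against 10.7% of all genes, and 2 lower, against 11.2%. Sephs2, which makes the selenium donor, read 6.87, 6.69 and 7.03 in DX2 and 6.17, 6.62 and 6.50 in control spleens, a difference of 0.43 (SE 0.15), and its paralogue Sephs1 differed by 0.35 (SE 0.11). Secisbp2, which binds the selenocysteine insertion element, read 6.77, 6.73 and 6.95 in DX2 and 7.26, 7.12 and 7.26 in control spleens, a difference of -0.40 (SE 0.11). Eefsec, the dedicated elongation factor, differed by -0.36 (SE 0.15), and by -0.22 without DX2 1. The list's median was -0.14, and it was -0.21 without control 1, -0.07 after a second quantile normalization and -0.04 with centred arrays.

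The subunits of glutamate-cysteine ligase differed unequally between the groups. The log2 signal of Gclm minus that of Gclc was 1.26, 0.75 and 1.16 in DX2 spleens and -0.47, 0.28 and 0.26 in control spleens, so the groups did not overlap even though each gene did. Since the probe sets differ in brightness, the sign of such a value says nothing of which subunit has more transcript. This comparison was chosen after the values were seen and was not tested.

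Glrx5, a mitochondrial glutaredoxin of iron-sulfur cluster assembly, and Mgst3, a membrane glutathione transferase, were singled out after their values were seen because they ordered the 6 spleens as Prdx2 did. Glrx5 read 9.80, 8.18 and 9.63 in DX2 and 7.58, 8.63 and 8.30 in control spleens, and Mgst3 read 8.41, 6.40 and 8.09 in DX2 and 5.83, 7.28 and 7.17 in control spleens. Their differences of 1.03 (SE 0.45) and 0.87 (SE 0.58) did not pass the test (limma adjusted p = 0.322 and 0.513). That of Mgst3 was 0.49 without DX2 1, 1.49 without DX2 2 and 0.41 without control 1.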
